A study of Mus musculus with 4 samples.

Results

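Oxidative phosphorylation runs on 5 protein complexes of the inner mitochondrial membrane, and the nuclear genes for their subunits were followed here through the cell types of the mouse ovary. The genes were chosen by symbol: those beginning Nduf followed by a, b, c, s or v and a number, the genes Sdha, Sdhb, Sdhc and Sdhd, those beginning Uqcr or Atp5, and Cox4 to Cox8. The assembly factors beginning Ndufaf and the paralogs Ndufa4l2 and Cox4i2 were left out, and a gene needed at least 100 UMIs (unique molecular identifiers, each standing for 1 captured transcript) over the 4 libraries. Of 32285 genes in the files, 83 matched and 80 were members: 37 of complex I, 4 of complex II, 8 of complex III, 14 of complex IV and 17 of complex V. The 3 genes under the minimum were Cox7b2 (92 UMIs), Cox8b (26 UMIs) and Cox8c (15 UMIs), and the members nearest to it were Cox6a2 (296 UMIs) and Cox7a1 (1902 UMIs). The rule counts Ndufa4 to complex I by its symbol, although its product is now placed in complex IV, and it misses Ndufab1 of complex I and Cyc1 of complex III.

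Single-cell RNA was taken from whole ovaries of 8-week-old female mice in estrus. The 2 Fosl2F/F libraries came from mice with a Fosl2 gene flanked by LoxP sites on both alleles (Fosl2flox/flox). The 2 libraries labelled Fosl2cKO came from littermates that carried the same alleles and in addition a Cyp19a1-Cre transgene. The aromatase promoter drives this Cre in granulosa cells (GCs), the somatic cells around the oocyte, so that cells that never expressed aromatase keep the floxed gene whole, while luteal cells, which arise from GCs, can carry the deletion. The study names as many animals as libraries in each group, the labels do not say which animals made up a library, and every p-value below measures the spread between these libraries only.

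After filtering, 8150 and 19575 cells of the Fosl2F/F libraries and 6760 and 7053 cells of the libraries labelled Fosl2cKO were used. Their totals of UMIs were alike (104303269 to 111314200), but the median cell of Fosl2F/F replicate 2 held 3655 UMIs against 11177 to 12465 in the other libraries. Fosl2 itself did not separate the labels in GC-like cells, at 161 and 167 CPM (the usual scaling of a gene's UMIs to the total UMIs of the class in that library) in Fosl2F/F and 167 and 115 CPM in Fosl2cKO. Both Fosl2cKO libraries were below both Fosl2F/F libraries in 6 of the 10 GC subclasses described below and in B lymphocyte-like cells, and above them in luteal-like and theca-like cells. The count files do not say where on the gene these UMIs lie, so that this is no check of the deletion. The members and the mitochondrially encoded genes were left out of the clustering features, and clusters were named "-like" from marker genes. All of the markers were highest in their own class for B lymphocyte-like (7 of 7), NK or T-like (9 of 9), macrophage-like (8 of 8) and epithelial-like cells (9 of 9), against 8 of 11 for GC-like, 7 of 9 for theca-like and 7 of 10 for luteal-like cells. The pericyte or smooth muscle-like class held 5 of 9, because Acta2, Mcam, Myh11 and Tagln were higher in a cluster that stayed unnamed (cluster 13). Levels below are in CPM of the class, in the order Fosl2F/F replicates 1 and 2, then Fosl2cKO replicates 1 and 2, and 3′ UMI counts do not scale with transcript length.

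Complex I takes electrons from NADH and complex II from succinate. Both pass them through ubiquinone to complex III, which hands them by cytochrome c to complex IV, where oxygen is reduced. Complexes I, III and IV pump protons, and complex V, the ATP synthase, uses the gradient to make ATP. Outside complex II, whose subunits are all nuclear, most subunits come from nuclear genes and a small core from the mitochondrial genome, so that assembly needs both. In the ovary, theca and luteal cells turn cholesterol into steroids, in part inside mitochondria. GCs express aromatase, feed the oocyte and are known for strong glycolysis.

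Promoter sequence is shown first, because a set of subunits that moves together is often described through shared promoter elements. RefSeq promoters on GRCm38.p6, from 250 bases before to 50 bases after the start of the gene, matched 65 of the 80 members. Motifs were searched on both strands, as GCGCA and GCGC with any 1 base between them for NRF1, CCGGAAG for ETS factors, AAGATGGC for YY1 and TGANTCA for AP-1, the complex that holds Fosl2. The NRF1 letters stood in 17 of the 65 promoters (26.2%) against 5.19% of all 27025 promoters, the ETS letters in 17 (26.2%) against 9.93%, and the YY1 letters in 9 (13.8%) against 3.19%. Any of these 3 stood in 37 (56.9%) against 16.4%, and the AP-1 letters in 7 (10.8%) against 8.97%. A match is a description of the letters and no match says only that they are not in this window. Shown are the 120 bases before the start for 4 members that hold both the NRF1 and the ETS letters in the searched window. Also shown are the tissue isoforms Cox6b2 and Cox7a1, which hold none of the 4 motifs here and whose levels are described below. Other members without any of the 4 include Atp5b, Cox5b, Ndufb5 and Uqcr10. Whether the motifs go with the levels across classes was not tested. Capitals mark the motif letters, on either strand. The bases shown hold both motifs for Cox6a1 and Sdhd, the ETS letters for Atp5h and the NRF1 letters for Atp5k, whose other motif lies elsewhere in the window. The starts are those of RefSeq, and the GENCODE genes of Cox6a1, Atp5h, Atp5k and Cox7a1 begin within the bases shown.
Cox6a1, chr5:115348959-115349078, minus strand: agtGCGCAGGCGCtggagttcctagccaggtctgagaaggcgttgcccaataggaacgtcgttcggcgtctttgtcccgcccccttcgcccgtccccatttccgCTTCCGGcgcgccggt
Sdhd, chr9:50603850-50603969, minus strand: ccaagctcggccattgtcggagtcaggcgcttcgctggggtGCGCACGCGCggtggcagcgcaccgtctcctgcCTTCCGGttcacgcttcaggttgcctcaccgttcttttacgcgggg
Atp5h, chr11:115419920-115420039, minus strand: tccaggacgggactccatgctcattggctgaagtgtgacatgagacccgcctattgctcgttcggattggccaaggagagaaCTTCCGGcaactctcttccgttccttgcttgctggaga
Atp5k, chr5:108434400-108434519, minus strand: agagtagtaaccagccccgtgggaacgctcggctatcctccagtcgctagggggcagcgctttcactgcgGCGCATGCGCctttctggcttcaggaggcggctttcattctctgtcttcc
Cox6b2, chr7:4753095-4753214, minus strand: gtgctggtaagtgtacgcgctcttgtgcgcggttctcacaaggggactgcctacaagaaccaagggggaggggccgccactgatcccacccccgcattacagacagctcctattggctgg
Cox7a1, chr7:30184051-30184170, plus strand: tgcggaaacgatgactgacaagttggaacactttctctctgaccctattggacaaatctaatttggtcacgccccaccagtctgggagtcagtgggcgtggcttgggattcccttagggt

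The summed level of the subunits had its highest means in theca-like, luteal-like and GC-like cells. Summed over the 80 members, theca-like cells held 24473, 18108, 18476 and 17459 CPM, luteal-like cells 19150, 21914, 15099 and 13930 CPM, and GC-like cells 19155, 17053, 15553 and 15996 CPM. The means over the 4 libraries were 19629 ± 3257 (SD, n = 4) in theca-like, 17523 ± 3684 in luteal-like and 16939 ± 1606 in GC-like cells. Then came pericyte or smooth muscle-like (14647), epithelial-like (14475), endothelial-like (13536), stromal-like (13389), macrophage-like (13256), NK or T-like (12783), dendritic-like (12571), cluster 13 (12514), B lymphocyte-like (10735) and lymphatic endothelial-like cells (10606). The ranges of every pair of neighbours in this order overlapped, so that the order of neighbours is not settled by 4 libraries. GC-like cells were nevertheless above pericyte or smooth muscle-like cells within each of the 4 libraries.

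**Figure D1:**
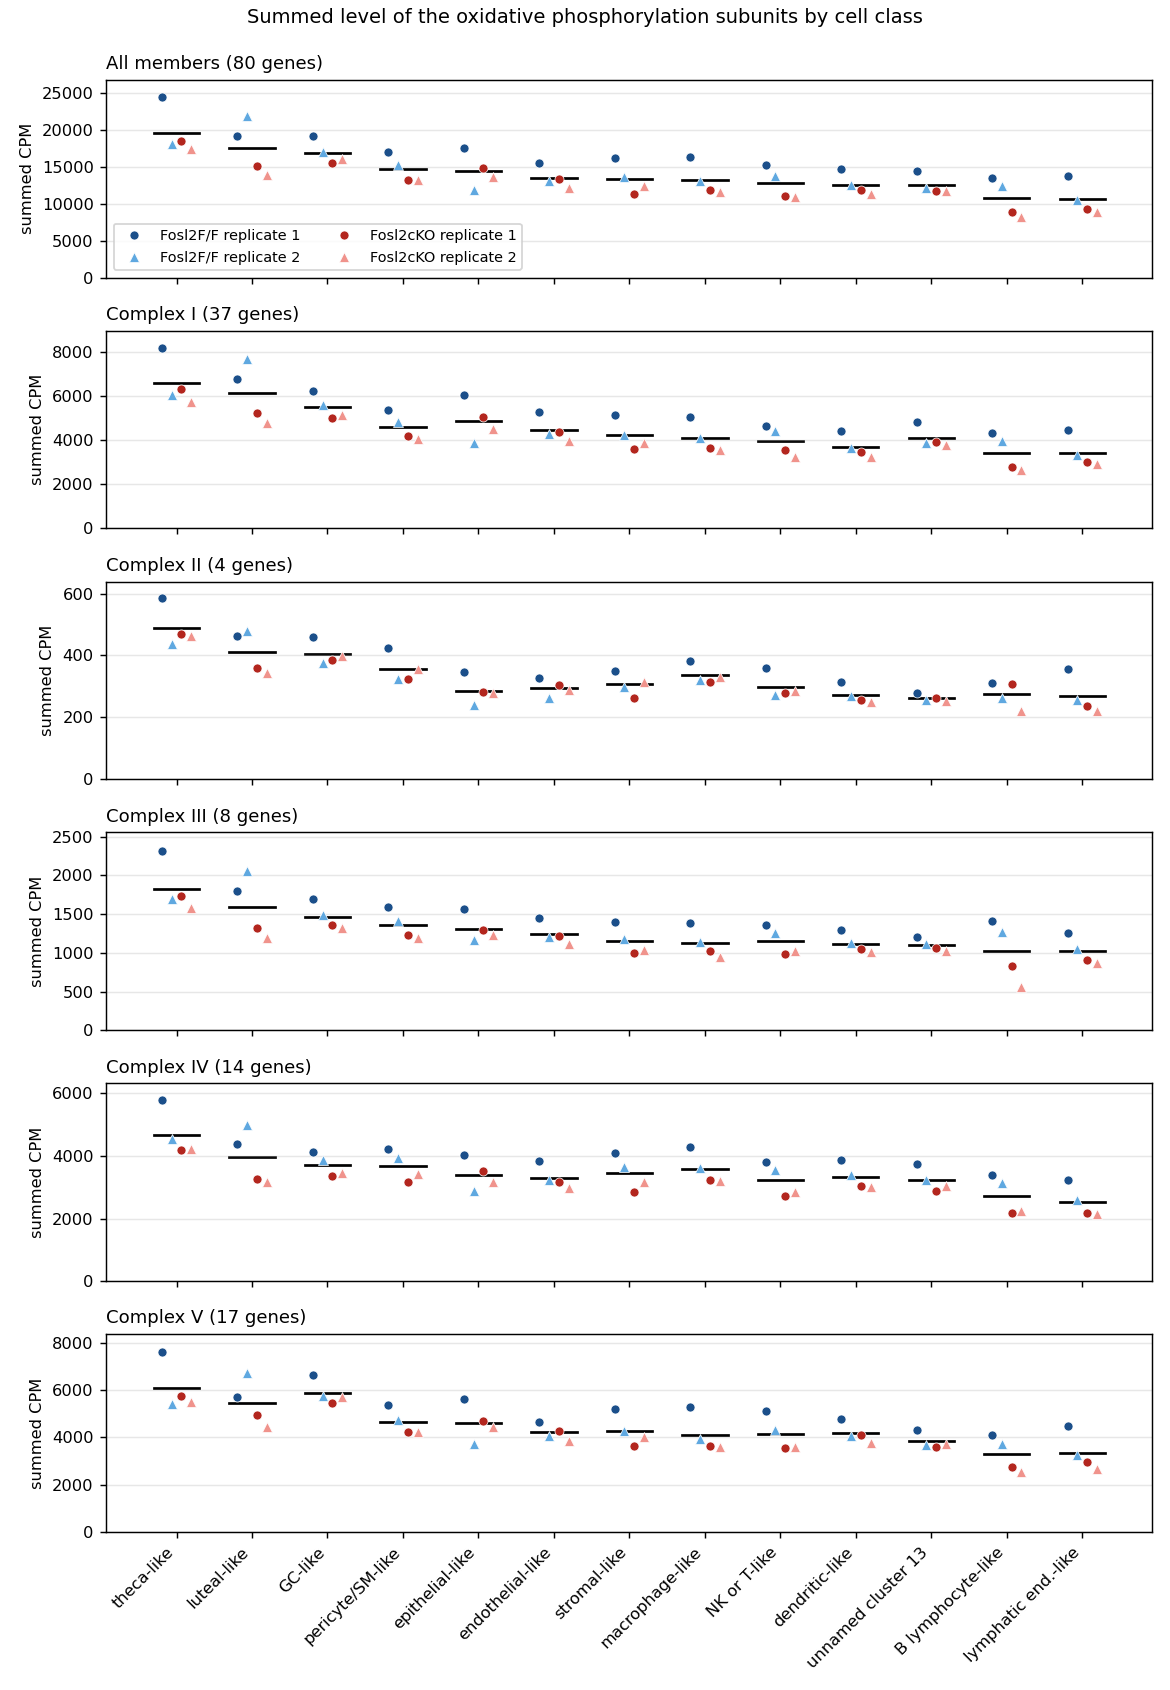
Summed level (CPM of the class, linear axis from 0) of all 80 members and of the members of each complex, by cell class. Each point is 1 library, bars are the mean of the 4 libraries, and theca-like cells have the highest mean for all members (19629) and lymphatic endothelial-like cells the lowest (10606).

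The share of each complex in the members' UMIs varied between classes. Complex I took 29.3% to 34.8%, complex V 30.6% to 34.8%, complex IV 21.8% to 27.1%, complex III 8.49% to 9.67% and complex II 1.98% to 2.65%, over the 13 classes with at least 20 cells in each library. The largest share of complex IV was in macrophage-like cells (27.1% ± 0.634, SD, n = 4) and the smallest in GC-like cells (21.8% ± 0.549). Complex V took its largest share in GC-like cells (34.8% ± 0.846) and complex I in luteal-like cells (34.8% ± 0.436).

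Classes were compared by contrasting each class with the mean of the others in 1 fit over all genes, with the library as a block, and the threshold for a member was a log2 difference over 0.25 in size together with an adjusted p under 0.1. The classes were drawn from other genes of the same cells, so that these are differences between clusters of these libraries and not between sorted cell types. Theca-like cells stood highest, with 72 of 80 members higher and 0 lower (median log2 difference 0.47, all genes 0.07), where 32.8% of all 14317 genes were higher and 20.5% lower. This class pooled clusters 2 and 10, and cluster 2 held 48.6%, 70.1%, 85.7% and 57.4% of its UMIs in the order of the libraries. When cells scored as doublets were kept, 1 theca-like cluster was led by Cyp17a1 and the other by Abcb1b, Dync1i1 and Adh1. The members were not tested in each cluster apart. In luteal-like cells 58 were higher and 3 lower (median 0.38, all genes 0.09), against 35.3% and 21.5% of all genes. In GC-like cells 36 were higher and 4 lower (median 0.22, all genes 0.11), against 37.5% and 23.3%, so that the share of members higher there (36 of 80) lies near that of all genes. The 13 mitochondrially encoded subunits, which the rule and the clustering features left out, were higher in 13 of 13 cases in theca-like, 6 of 13 in luteal-like and 3 of 13 in GC-like cells, and none was lower. They are not wholly apart from the clustering, because the mitochondrial share of each cell was regressed out before it. Cytosolic ribosomal proteins moved otherwise, with 10 of 80 higher and 1 lower in theca-like, 2 higher and 68 lower in luteal-like, and 11 higher and 1 lower in GC-like cells. Across the 13 classes the summed level went with the median UMIs per cell (Pearson's r = 0.80, a description over classes that share libraries), and the part of depth in these differences was not tested.

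**Figure D2:**
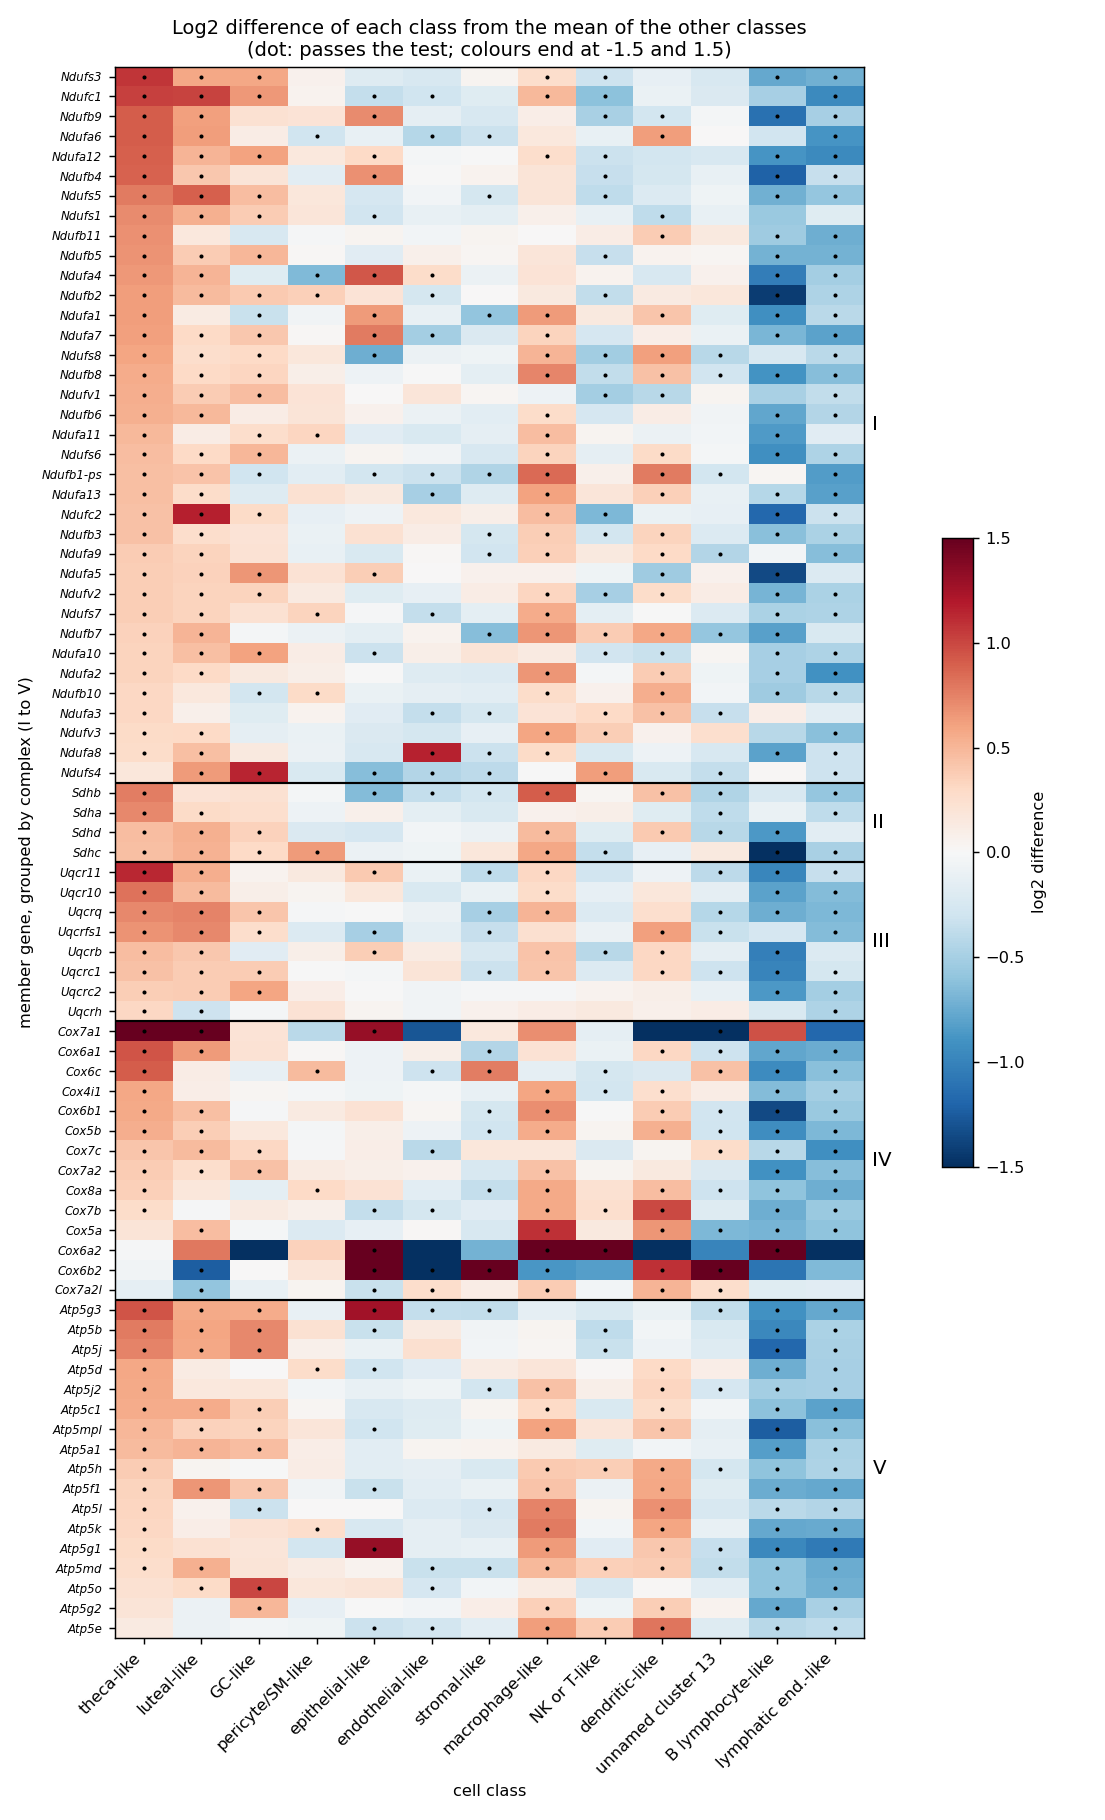
Log2 difference of 79 of the 80 members (rows, by complex) from the mean of the other classes (columns), with a dot where the test is passed and colours ending at -1.5 and 1.5. Over all 80 members, 72 passed as higher in theca-like cells and 69 as lower in lymphatic endothelial-like cells.

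In theca-like cells 36 of the 37 members of complex I were higher, against 32.8% of all genes, and the other, Ndufs4, did not pass. Ndufs3, a core subunit of the module that reduces ubiquinone, stood at 252, 169, 159 and 172 CPM in theca-like cells, 1.08 ± 0.10 (SE) above the other classes on the log2 scale (adjusted p = 9.64e-13). Ndufv1, which holds the flavin where NADH is oxidised, was at 125, 88.6, 82.4 and 88.9 CPM, with a smaller difference of 0.55 ± 0.08. In both the highest value was in Fosl2F/F replicate 1, the library with the highest summed level in most classes.

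Ndufs4, an accessory subunit of the NADH-oxidising arm whose loss causes a fatal encephalopathy in mice, was highest in GC-like cells, at 410.5, 319, 270 and 285 CPM, 1.15 ± 0.09 above the other classes (adjusted p = 1.5e-14). It was also higher in luteal-like and NK or T-like cells (0.63 in the latter) and lower in epithelial-like cells, at 113, 80.2, 92.5 and 99.9 CPM (-0.64 ± 0.11). The lowest GC-like library lay above the highest epithelial-like library.

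In luteal-like cells the members of complex I furthest above the other classes were accessory subunits of the membrane arm. Ndufc2 stood at 355, 623, 324 and 475 CPM (1.17 ± 0.10, adjusted p = 1.32e-13) and Ndufc1 at 145, 242, 159 and 124 CPM (1.02 ± 0.10, adjusted p = 1.41e-11). In both, Fosl2F/F replicate 2 was highest, and Ndufc1 was equally far above the other classes in theca-like cells (1.02 ± 0.10). Ndufc2 was also the member of complex I with the largest ratio between the highest and the lowest class mean (3.61), followed by Ndufb2 (3.41). In NK or T-like cells the same genes were on the low side, with Ndufc2 at 179, 147, 109 and 110 CPM (-0.68 ± 0.13) and Ndufc1 0.61 lower on the log2 scale.

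Ndufa8, an accessory subunit that faces the intermembrane space, was the member furthest above the other classes in endothelial-like cells at 380, 257, 317 and 335 CPM (1.15 ± 0.08, adjusted p = 3.1e-17). In this class 3 members were higher and 18 lower against 27.2% and 19.6% of all genes (median -0.12, all genes 0.00), so that the lower count lies near the share of all genes. Of the mitochondrially encoded subunits 10 of 13 were lower. Ndufa7 and Ndufa13 were 0.51 and 0.50 lower there. Ndufa4, the most abundant member of the Nduf genes (mean over classes 465 CPM), was highest in epithelial-like cells at 1066, 535, 979 and 711 CPM (0.93 ± 0.12), and lower in pericyte or smooth muscle-like cells at 319, 306, 388 and 187 CPM (-0.66 ± 0.14) and in B lymphocyte-like cells (-1.03 ± 0.17). Ndufa3, the least abundant (43.5 CPM), was among the 5 members whose profile was least like the others.

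Complex II, also the enzyme succinate dehydrogenase of the citric acid cycle, was higher in theca-like cells for 4 of 4 members, against 32.8% of all genes. Sdha, the flavoprotein that oxidises succinate, stood at 198, 162, 154 and 175 CPM (0.72 ± 0.07, adjusted p = 1.3e-12), and the lowest theca-like library exceeded the highest GC-like library (144, 126, 131 and 131 CPM). Sdhb, the iron-sulphur subunit, was 0.77 ± 0.10 higher in theca-like cells. It was 0.91 ± 0.11 higher in macrophage-like cells, at 133, 123, 104 and 103 CPM, and 0.65 lower in epithelial-like cells. Sdhc, a membrane anchor, had the largest ratio between class means in this complex (3.91). It was 0.64 ± 0.11 higher in pericyte or smooth muscle-like cells (130, 104, 106 and 129 CPM) and 1.68 lower in B lymphocyte-like cells (44.4, 14.7, 53.3 and 7.35 CPM), where few UMIs lay behind each value.

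Complex III was higher in theca-like cells for 8 of 8 and in luteal-like cells for 7 of 8 members, against 32.8% and 35.3% of all genes. Uqcr11, its smallest subunit, stood at 290, 241, 246 and 160 CPM in theca-like cells (1.13 ± 0.11, adjusted p = 1.65e-12) and had the largest ratio of class means in the complex (3.39). Uqcrfs1, the Rieske iron-sulphur protein, was higher in theca-like (0.67 ± 0.10), luteal-like (0.72 ± 0.10) and GC-like cells. Uqcrh, the hinge protein that docks cytochrome c, was the most abundant member of the complex (344 CPM) and the exception in luteal-like cells, at 325, 302, 257 and 260 CPM (-0.31 ± 0.08, adjusted p = 0.000674). Uqcrq, a small ubiquinone-binding subunit, was 0.49 lower in stromal-like cells at 126, 132, 81.0 and 97.5 CPM.

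In theca-like cells 10 of the 14 members of complex IV were higher, in luteal-like 7 (2 lower), and in GC-like cells 2, where its median difference was 0.02. Of all genes 32.8%, 35.3% and 37.5% were higher in these classes, and 21.5% were lower in luteal-like cells. Cox4i1, the largest nuclear-encoded subunit and the most abundant member of all (752 CPM over classes), stood at 1337, 1145, 932 and 996 CPM in theca-like cells (0.58 ± 0.07, adjusted p = 2.21e-09). In luteal-like cells its difference was 0.09 and in GC-like cells 0.03, and neither passed. Cox5a, a nuclear-encoded supernumerary subunit, did not pass in theca-like cells (0.20 ± 0.10). It stood highest in macrophage-like cells at 744, 585, 568 and 505 CPM (1.09 ± 0.09, adjusted p = 1.72e-14). Cox6c was higher in theca-like (0.91 ± 0.08) and in stromal-like cells, at 822, 634, 452 and 615 CPM in the latter (0.77 ± 0.08).

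Complex V was higher in theca-like cells for 14 of 17 members and in luteal-like and GC-like cells for 9 each. Of all genes 32.8%, 35.3% and 37.5% were higher in these classes. Atp5b, the catalytic beta subunit and the most abundant member of the complex (542 CPM over classes), stood at 1132, 755, 777 and 808 CPM in theca-like cells (0.77 ± 0.08) and at 1019, 807, 782 and 894 CPM in GC-like cells (0.72 ± 0.08, adjusted p = 2.67e-10). Atp5o, the OSCP stalk subunit that joins the catalytic head to the membrane part, was higher in GC-like cells at 411, 388, 337 and 363 CPM (1.0 ± 0.09) and did not pass in theca-like cells at 291, 194, 210 and 185 CPM. Atp5a1, the alpha subunit, differed little between these classes (0.47 in theca-like, 0.46 in GC-like cells). Atp5l, subunit g, was 0.32 lower in GC-like cells (adjusted p = 0.000517), but without TMM scaling its difference of -0.21 did not pass.

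Of 20 subunits listed for this work as catalytic or central to their complex, 19 passed as higher in theca-like, 18 in luteal-like and 14 in GC-like cells. Of all genes 32.8%, 35.3% and 37.5% were higher in these classes. The list counts Cox4i1, Cox5a and Cox5b, although the catalytic core of complex IV is encoded in mitochondria. The exception in theca-like cells was Cox5a. In luteal-like cells Sdhb and Cox4i1 did not pass, and in GC-like cells these were Ndufs7, Sdha, Sdhb, Cox4i1, Cox5a and Cox5b. The median profile over the 13 classes described most members, with a median Pearson's r of 0.75 and r over 0.5 for 68 of 80. The highest class was theca-like for 41 members, GC-like for 13 and luteal-like for 10, and the lowest was B lymphocyte-like for 33 and lymphatic endothelial-like for 25. The median r was highest for complex III (0.82) and complex V (0.80) and lowest for complex II (0.66). The profiles least like the others were those of Cox7a2l (r = -0.53), Cox6a2 (-0.36), Cox6b2 (0.12), Ndufa3 (0.21) and Atp5e (0.24). These correlations share libraries and depth and are descriptions.

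Immune classes fell on either side. In macrophage-like cells 50 members were higher and 1 lower (median 0.35, all genes 0.01), against 32.2% and 23.4% of all genes. In dendritic-like cells 41 were higher and 6 lower (median 0.26, all genes -0.16), against 26.4% and 26.7%. The directions of both rest on the TMM scaling, since without it the medians were -0.07 and -0.10. The mean TMM factors of these classes were 0.764 and 0.791, and cytosolic ribosomal proteins were higher in 52 and 79 of 80 cases there. Within dendritic-like cells complexes IV and V led, with 9 of 14 and 12 of 17 higher, among them Cox7b at 233, 137, 156 and 185 CPM (0.99 ± 0.11) and Atp5e, the epsilon subunit, at 387, 343, 283 and 239 CPM (0.80 ± 0.09). Ndufa5 and Ndufv1 were lower (-0.54 and -0.42), and 7 of 13 mitochondrially encoded subunits were lower.

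In NK or T-like cells 9 members were higher and 22 lower (median -0.12, all genes -0.01), against 26.7% and 21.4% of all genes, and 16 of the 22 were of complex I. In B lymphocyte-like cells 1 was higher and 62 lower (median -0.73, all genes -0.41), against 11.9% and 17.9%. Atp5g1, a gene for the ring subunit c of complex V, was the member furthest below the other classes in lymphatic endothelial-like cells, at 184, 133, 105 and 52.2 CPM (-1.06 ± 0.17). That class had 0 members higher and 69 lower (median -0.51, all genes -0.09), against 21.7% and 19.6%, with 17 of 17 members of complex V lower. Ribosomal proteins were lower there in 79 of 80 cases and mitochondrially encoded subunits in 9 of 13.

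The other stromal and epithelial classes lay near the middle. Stromal-like cells had 3 members higher and 23 lower (median -0.15, all genes 0.08), against 32.7% and 18.8% of all genes. Pericyte or smooth muscle-like cells had 10 higher and 2 lower (0.06, all genes 0.01), against 25.8% and 17.3%. Epithelial-like cells had 14 higher and 15 lower (-0.07, all genes -0.03), against 30.3% and 26.0%, and cluster 13 had 5 higher and 25 lower (-0.17, all genes 0.03), against 28.0% and 19.2%.

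Isoforms of single subunits differed between classes. Subunit c of the ATP synthase comes from 3 genes, Atp5g1, Atp5g2 and Atp5g3, whose mature proteins are identical. Atp5g2 held 48.1% ± 1.81 of their UMIs in GC-like cells and 52.0% ± 2.08 in stromal-like cells, but 27.5% ± 1.10 in epithelial-like cells, with no overlap between the libraries of these classes. In epithelial-like cells Atp5g1 stood at 613, 368, 529 and 493 CPM (1.31 ± 0.12, adjusted p = 2.28e-13) and Atp5g3 at 737, 430, 585 and 611 CPM (1.26 ± 0.10, adjusted p = 1.6e-15). Atp5g2 was at 510, 291, 456 and 402 CPM there, a log2 difference of -0.01 that did not pass. Theca-like and luteal-like cells also held much Atp5g3 (39.5% ± 3.92 and 37.0% ± 4.52 of the UMIs).

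Cox6b2, known as the testis isoform of subunit VIb, was highest in epithelial-like cells at 55.5, 42.0, 62.1 and 58.4 CPM (2.58 ± 0.20, adjusted p = 2.15e-15). It was also higher in cluster 13 (41.6, 33.6, 33.5 and 37.2 CPM, 1.98 ± 0.22) and in stromal-like cells (34.4, 32.8, 29.9 and 22.1 CPM, 1.57 ± 0.19). It took 19.7% ± 3.12 of the UMIs of Cox6b1 and Cox6b2 in epithelial-like cells and 0.955% ± 0.697 in endothelial-like cells, where it stood at 3.86, 2.76, 0 and 1.63 CPM. Its highest class mean was 26.4 times its lowest, where this ratio had a median of 2.29 over the members.

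Cox7a1, the heart and muscle isoform of subunit VIIa, was low throughout, with 2 UMIs in all of cluster 13. It stood at 14, 6.99, 13.2 and 6.97 CPM in theca-like cells (2.66 ± 0.28, adjusted p = 6.85e-11) and at 15.4, 9.54, 3.18 and 2.22 CPM in luteal-like cells (2.06 ± 0.32, adjusted p = 4.73e-07). Even there it made up 1.94% ± 0.644 and 1.54% ± 1.03 of the UMIs of Cox7a1, Cox7a2 and Cox7a2l. Cox7a2l ran against the other members, as it was lower in luteal-like cells at 237, 170, 153 and 163 CPM (-0.59 ± 0.11) and did not pass in theca-like cells (-0.14 ± 0.11).

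**Figure D3:**
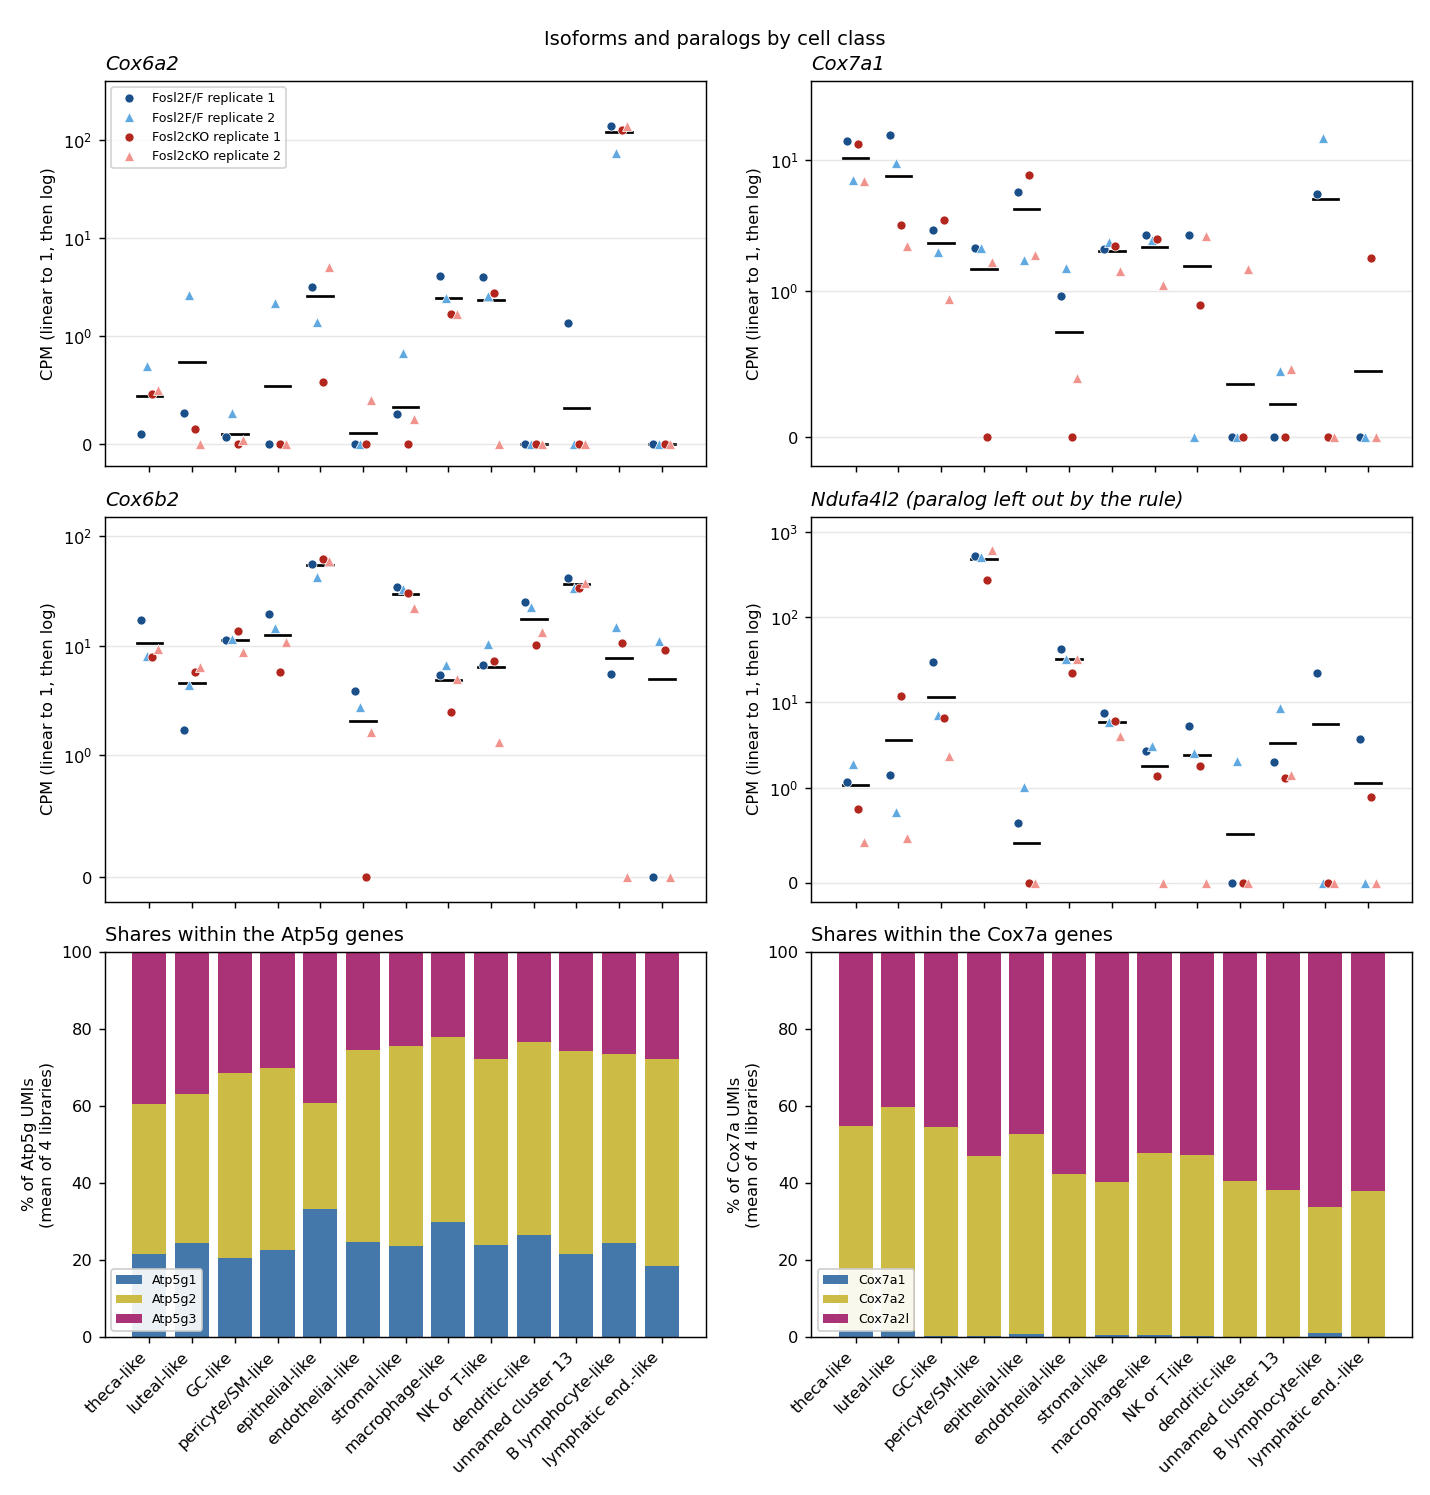
CPM of 3 member isoforms and of the paralog Ndufa4l2 by class (each point 1 library, bars the mean of the 4, axis linear to 1 and then log), and shares of UMIs within the Atp5g and Cox7a genes (stacked bars from 0, mean of 4 libraries). Cox6a2 is highest in the class named B lymphocyte-like, where its UMIs lie in 14 cells with Siglech or Ccr9, Ndufa4l2 in pericyte or smooth muscle-like cells, and epithelial-like cells hold the smallest share of Atp5g2 (27.5%).

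Among the classes, the paralogs left out by the rule stood high in pericyte or smooth muscle-like cells, whose Ndufa4 was low. Ndufa4l2 stood there at 522, 499, 273 and 604 CPM and took 60.4% ± 14.5 of the UMIs of Ndufa4 and Ndufa4l2. Cox4i2, the second isoform of subunit IV, stood at 325, 280, 143 and 373 CPM and took 26.5% ± 7.02 of the UMIs of Cox4i1 and Cox4i2. In GC-like cells Cox4i2 was at 83.9, 32.3, 11.6 and 24.6 CPM, all below the pericyte or smooth muscle-like libraries. These values pool the GC subclasses described below. Cox4i2 was among the 7 markers that named mitotic-antral-like cells, and among the subclasses it was highest there. Neither paralog was left out of the clustering.

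Cox6a2, the heart and muscle isoform of subunit VIa, was listed in the B lymphocyte-like class at 139, 73.3, 128 and 140 CPM. Dendritic-like and lymphatic endothelial-like cells had 0 UMIs of it and GC-like cells 18 UMIs in 15764 cells. The fitted difference passed (8.51 ± 0.62, adjusted p = 1.95e-14), but it averages over classes with 0 UMIs and is no estimate of a fold. All 61 UMIs lay in 14 of the 171 cells of the class. By genes chosen after these values were seen, 19 cells held UMIs of Siglech or Ccr9, which mark plasmacytoid dendritic cells, and none of the B lymphocyte genes, and 11 of these 19 held Cox6a2. A further 4 cells held both kinds of gene and 3 of them Cox6a2. Among 146 cells with B lymphocyte genes only, 0 held a UMI of it, which leaves room for up to 2.05% of cells with a UMI by a floor of 3 counts and 2.49% by the exact Clopper-Pearson bound. Both cover counting error only and limit cells with a UMI, not cells that express the gene. The 146 cells were shallower than the 19 within each library that held both, with median UMIs of 2234.5 against 6519 in Fosl2F/F replicate 1, 1216 against 1874 in Fosl2F/F replicate 2 and 2607 against 6746.5 in Fosl2cKO replicate 1, and the part of depth was not tested. In the other classes 0% to 2.96% of the cells held a UMI. When the libraries were clustered without integration, Cox6a2 was in the dendritic-like class (6.60, adjusted p = 2.04e-11) and its difference in the B lymphocyte-like class was -5.38. The calls of Cox6a2 as higher in macrophage-like, NK or T-like and epithelial-like cells rest on 19, 7 and 19 UMIs.

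Other genes of mitochondrial energy metabolism, from lists set with the design, were counted beside the members. Of 17 genes of the citric acid cycle, 14 were higher in theca-like and 14 in luteal-like cells (1 lower in the latter) and 11 in GC-like cells (2 lower). Of 47 assembly factors of the complexes, 34 were higher in theca-like, 30 in luteal-like and 22 in GC-like cells. Cyc1, the cytochrome c1 of complex III that the symbol rule misses, was higher in theca-like (248, 134, 139 and 163 CPM, 1.03 ± 0.11), luteal-like (0.65 ± 0.12) and GC-like cells (0.84 ± 0.11). Cycs, the mobile cytochrome c, was higher in GC-like cells at 269, 198, 190 and 227 CPM (0.92 ± 0.13) and did not pass in theca-like cells (0.05 ± 0.15). Of 16 glycolysis genes 11 were higher in GC-like, 9 in luteal-like and 6 in theca-like cells. Of 12 regulators of mitochondrial biogenesis 4 were higher and 3 lower in theca-like cells. Since 37.5% of all genes were higher in GC-like, 35.3% in luteal-like and 32.8% in theca-like cells, the glycolysis and biogenesis counts in theca-like cells lie near those of all genes.

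GC-like cells, the class in which the aromatase promoter drives the Cre, were clustered again into subclasses. Cyp19a1, the aromatase gene, was among the markers of mural-like cells and was highest there among the subclasses. Which subclasses carry the deletion was not tested. The mean summed level of the highest subclass was 2.16 times that of the lowest, against 1.85 times among the 13 classes. Summed levels were 24607, 23900, 25411 and 20049 CPM in GC cluster 10 (unnamed, with Cdc20 and Ccnb2 among its leading genes), 23555, 22623, 19122 and 19421 CPM in mitotic-antral-like cells, and 20768, 19055, 16704 and 16937 CPM in mitotic-like cells. Mitotic-antral-like cells were named from Slc16a3, Ank1, Mvd, Ldha, Cox4i2, Pgk1 and Aldoa. None of these is a marker of mitotic-like cells, and Slc16a3, Ldha, Pgk1 and Aldoa are on the glycolysis list used above. The name therefore does not show that these cells divide. Mural-like cells, named for the GCs of the follicle wall, stood at 18529, 16565, 14525 and 15904 CPM. At the low end were cumulus-like cells, named for the GCs around the oocyte, at 14565, 12110, 11811 and 10859 CPM, GC cluster 9 (12232 ± 1408) and GC cluster 11 (10899 ± 1771). Neighbouring ranges overlapped in each case, but the lowest mitotic-antral-like library lay above the highest cumulus-like library.

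**Figure D4:**
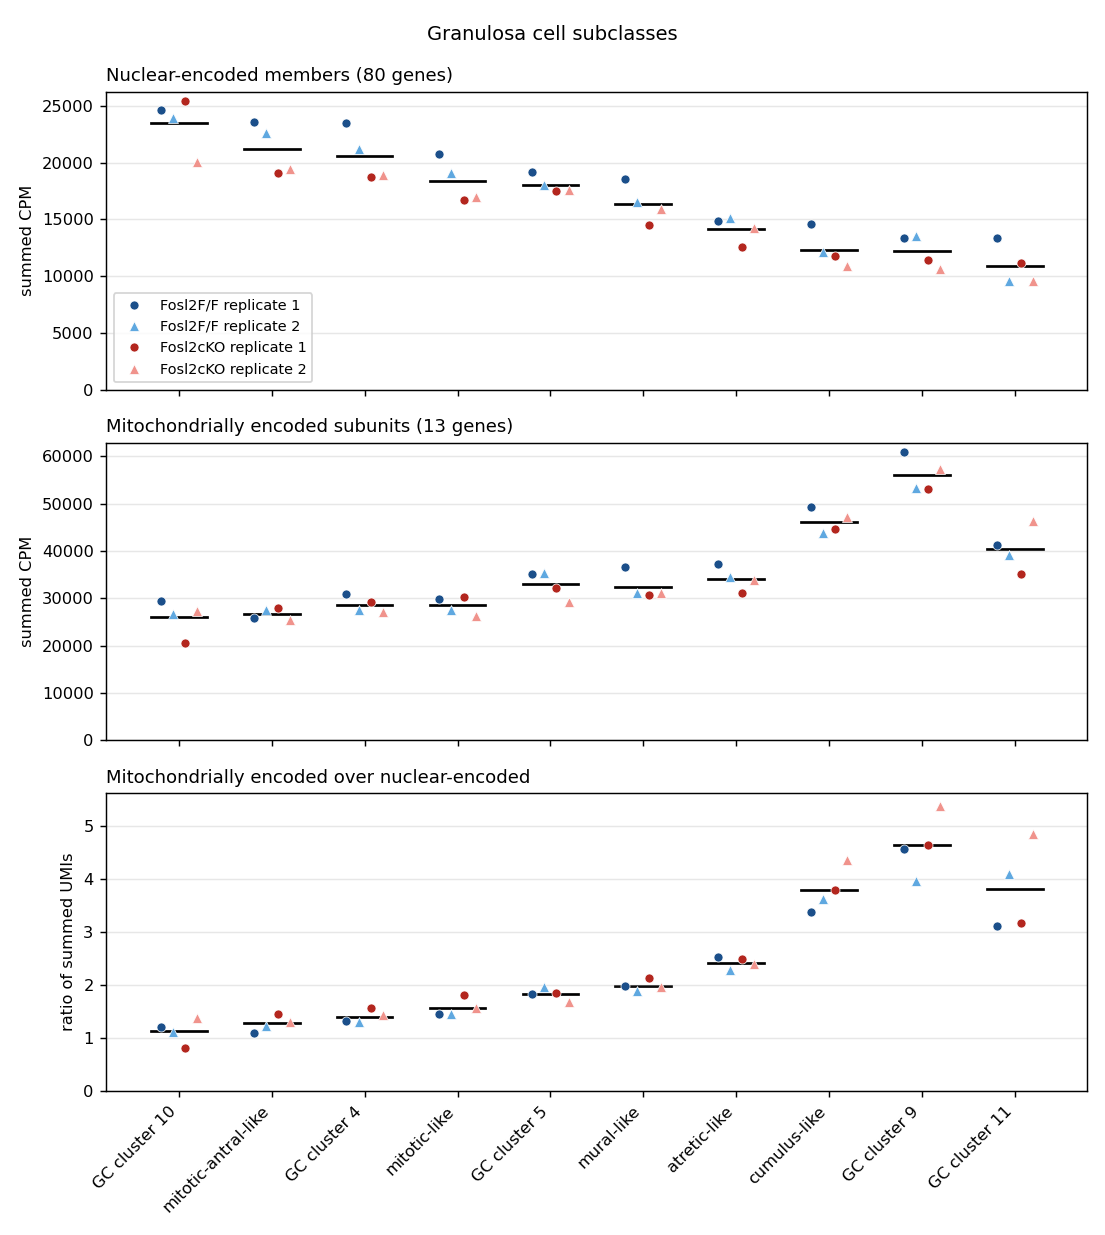
Summed CPM of the 80 members, summed CPM of the 13 mitochondrially encoded subunits, and the ratio of the second to the first, by GC subclass (each point 1 library, bars the mean of the 4, axes from 0). The members run from 23492 CPM in GC cluster 10 to 10899 CPM in GC cluster 11, and the ratio from 1.12 to 4.63.

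Counts went with these sums. Of 79 members tested, 76 were higher and 0 lower in GC cluster 10 (median 0.64), against 25.2% and 25.3% of all 13657 genes. In mitotic-antral-like cells these were 69 and 0 (median 0.50), against 25.6% and 21.3%, in GC cluster 4 72 and 0 (0.41), against 18.6% and 14.5%, in mitotic-like cells 42 and 0 (0.26), against 21.6% and 15.2%, and in GC cluster 5 30 and 1 (0.22), against 18.8% and 12.9%. Mural-like cells had 10 higher and 8 lower (0.04), against 24.0% and 20%. Atretic-like cells, named for the GCs of dying follicles, had 0 higher and 25 lower (-0.15), against 21.2% and 15.6%. Cumulus-like cells had 1 higher and 67 lower (-0.52), against 29.7% and 28.0%, GC cluster 9 had 0 and 74 (-0.62), against 14.8% and 16.0%, and GC cluster 11 had 0 and 72 (-0.76), against 24.2% and 25.7%. All 17 members of complex V were higher in mitotic-antral-like cells and 16 of 17 lower in cumulus-like cells.

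Uqcrq was among the 3 members furthest from the other subclasses in each of 5 subclasses. It stood at 364, 393, 280 and 247 CPM in mitotic-antral-like cells (0.99 ± 0.10, adjusted p = 1.07e-09), 268, 276, 227 and 190 CPM in mitotic-like cells (0.52 ± 0.11), 107, 169, 110 and 115 CPM in atretic-like cells (-0.51 ± 0.12) and 104, 106, 85.7 and 78.9 CPM in cumulus-like cells (-1.07 ± 0.12, adjusted p = 2.63e-09). Ndufs4, high in GC-like cells as a class, was highest in mitotic-antral-like cells (648, 499, 369 and 413 CPM, 0.86 ± 0.10) and GC cluster 4 (658, 499, 348 and 383 CPM, 0.77 ± 0.10). It was 1.43 lower in GC cluster 11. Atp5k, subunit e of the synthase, was 1.01 higher in GC cluster 10, 0.91 lower in cumulus-like cells and 1.28 lower in GC cluster 11.

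Against this trend, Cox6b2 was the member higher in cumulus-like cells, at 19.8, 14.7, 22.3 and 9.38 CPM (0.74 ± 0.13, adjusted p = 1.22e-05). Cox7a1 was highest in mural-like cells at 7.11, 3.06, 9.12 and 1.96 CPM (1.78 ± 0.25) and 1.56 lower in GC cluster 5. Uqcrh and Ndufc1 were 0.42 higher in mural-like cells, and Atp5g1 and Cox5a 0.55 and 0.48 lower, at 168, 162, 160 and 172 CPM and 288, 259, 264 and 281 CPM. With the cells scored as doublets kept, the last 2 differences were 0.05 and 0.03.

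The mitochondrially encoded subunits ran the other way in the subclasses at both ends of this order. Between the ends, mitochondrially encoded genes summed to 28550 CPM in mitotic-like cells, 33018 in GC cluster 5, 32432 in mural-like and 34196 in atretic-like cells. The 13 encoded subunits were higher in cumulus-like cells (9 of 13, all genes 29.7%) and in GC clusters 9 (13 of 13, all genes 14.8%) and 11 (6 of 13, all genes 24.2%). They were lower in mitotic-antral-like cells (7 of 13, all genes 21.3%), GC cluster 10 (11 of 13, all genes 25.3%) and GC cluster 4 (8 of 13, all genes 14.5%). The ratio of their summed UMIs to those of the 80 members was 3.38, 3.62, 3.78 and 4.34 in cumulus-like cells and 1.10, 1.22, 1.46 and 1.31 in mitotic-antral-like cells, without overlap. Over the 10 subclasses the members' level and that of the mitochondrially encoded genes had r = -0.83, where over the 13 classes it was 0.78, both as descriptions. Depth and ribosomal genes moved too. GC cluster 9 had a median of 2403 UMIs per cell and a median mitochondrial share of 7.18%, where the cell filter was 10%. This share was 4.55% in cumulus-like and 2.61% in mitotic-antral-like cells. Ribosomal proteins were higher in 50 and lower in 0 cases in mitotic-antral-like cells and 1 higher and 80 lower in GC cluster 9. The r with the members' level was 0.62 for median UMIs and 0.70 for ribosomal genes. The part of depth, mitochondrial share and ribosomal genes in the differences was not tested.

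The question of the study was what loss of Fosl2 in GCs changes. For the subunits, 0 members passed between Fosl2cKO and Fosl2F/F in any of the 13 classes or 10 GC subclasses by edgeR, and by DESeq2 on all 4 libraries 5 passed in luteal-like cells, where 3.44% of all genes did, and 0 elsewhere. Without Fosl2F/F replicate 2, the library of shallow cells, 42 passed by edgeR (36 in macrophage-like, 5 in B lymphocyte-like and 1 in NK or T-like cells), all lower in Fosl2cKO, where that fit called 10.7%, 5.34% and 2.74% of all genes in these classes. The edgeR fit without that library has 1 Fosl2F/F library, so that its spread comes from the Fosl2cKO pair and the lone library is assumed to vary alike. In the edgeR fit of all 4 libraries the share of all genes called in either direction was 0.00579% in GC-like, 0.0156% in luteal-like, 0.0340% in theca-like, 0.134% in stromal-like, 0.113% in B lymphocyte-like, 0.283% in NK or T-like, 0.248% in endothelial-like, 0.116% in epithelial-like, 0.228% in macrophage-like cells and 0.0449% in cluster 13. It was 0.00% in dendritic-like, lymphatic endothelial-like and pericyte or smooth muscle-like cells.

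In GC-like cells 76 of 79 members tested had values below 0, with a median log2 difference of -0.27 (all genes -0.02), and 12 (15.2%) had an unadjusted p under 0.05, as did 4.67% of all genes. Over the other classes this count was 0 in theca-like (3.55% of all genes), endothelial-like (4.94%) and epithelial-like cells (3.40%), 2 in cluster 13 (3.67%), 4 in lymphatic endothelial-like (5.24%), 5 in pericyte or smooth muscle-like (3.1%), 9 in macrophage-like (5.72%), 10 in dendritic-like (5.93%), 13 of 57 tested in B lymphocyte-like (11.8%) and 15 in stromal-like cells (4.17%), and higher in the luteal-like and NK or T-like cells described below. Members of a class share its libraries, so that such counts are not independent. Cox5b, a structural subunit of complex IV, stood at 305 and 288 CPM in Fosl2F/F and 220 and 228 CPM in Fosl2cKO (-0.43 ± 0.16, adjusted p = 1.0). Atp5e was at 281 and 290 CPM against 208 and 210 CPM (-0.48 ± 0.15, adjusted p = 0.995, the smallest of the class). For the catalytic Atp5a1 the groups overlapped, at 604 and 478 CPM against 530.5 and 565 CPM (-0.02 ± 0.20), as they did for Ndufs1 (62.4 and 59.1 against 64.0 and 61.7 CPM, 0.02 ± 0.16). Complex medians were -0.28 for complex I, -0.08 for complex II, -0.30 for complex III, -0.28 for complex IV and -0.22 for complex V. In 54 members both Fosl2cKO libraries lay below both Fosl2F/F libraries, where this held for 14.6% of all genes in the class.

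Values below 0 also prevailed in the other classes. In stromal-like cells the median was -0.42 with 79 of 79 below 0, and 59 members had both Fosl2cKO libraries below both Fosl2F/F libraries, where 11.7% of all genes did. In theca-like cells it was -0.27 with 79 of 79 below 0 (23 members without overlap, 11.2% of all genes). In luteal-like cells it was -0.65 with 77 of 79 below 0 (70 without overlap, 18.0%), and in NK or T-like cells -0.47 with 76 of 77 (61, 18.4%). The medians were -0.77 in B lymphocyte-like (39 of 57 tested without overlap, 17.8%), -0.44 in lymphatic endothelial-like (44, 15.6%), -0.40 in macrophage-like (50, 15.8%), -0.36 in dendritic-like (39, 13%), -0.32 in pericyte or smooth muscle-like (55, 15.9%), -0.26 in cluster 13 (36, 11%), -0.19 in endothelial-like (34, 15.0%) and -0.13 in epithelial-like cells (2, 8.49%). The median over all genes lay between -0.02 and 0.04 in these classes. Cluster 2 held 48.6% and 70.1% of the theca-like UMIs in Fosl2F/F and 85.7% and 57.4% in Fosl2cKO. The part of these shares in the theca-like values was not tested.

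**Figure D5:**
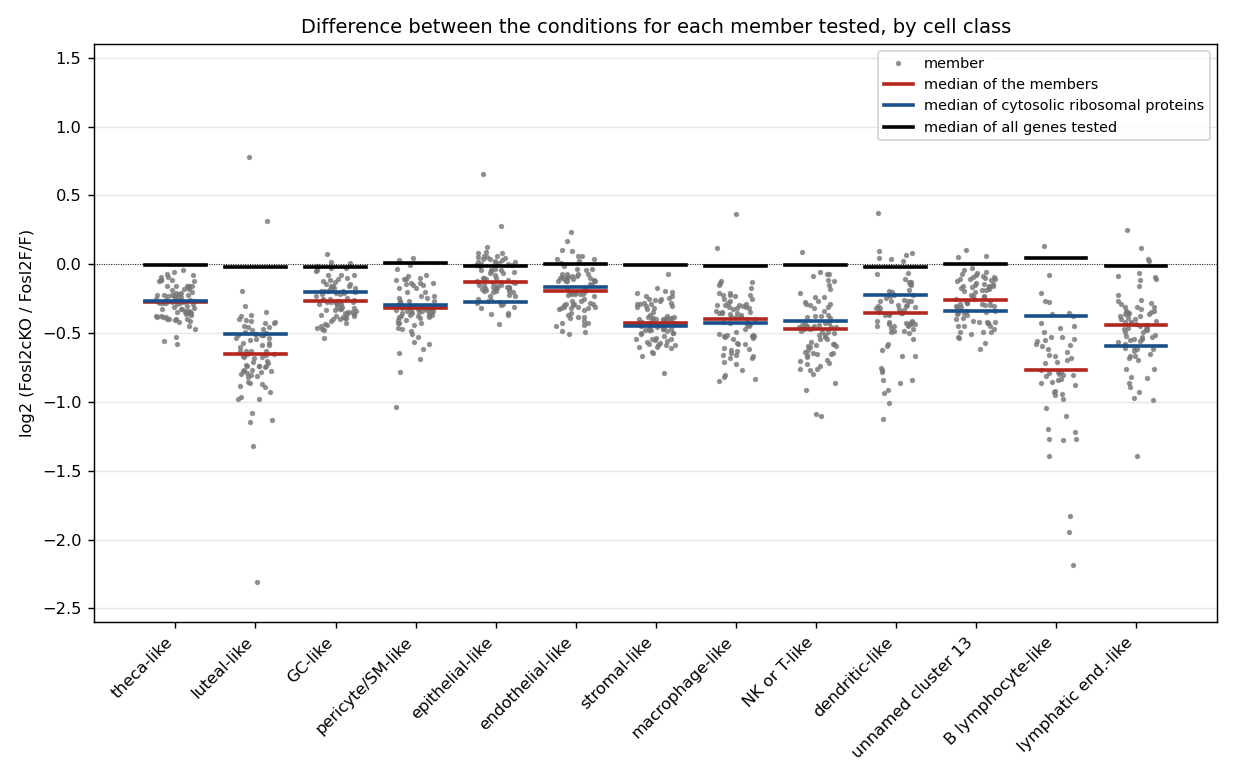
Log2 difference between Fosl2cKO and Fosl2F/F of each member tested (points, spread sideways for legibility) by class, with medians of the members, of the cytosolic ribosomal proteins and of all genes tested. The members' medians lie below 0 in all 13 classes, from -0.13 in epithelial-like to -0.77 in B lymphocyte-like cells.

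Cytosolic ribosomal proteins had medians of -0.20 in GC-like, -0.27 in theca-like, -0.45 in stromal-like and -0.51 in luteal-like cells, and what they share with the members was not tested. The share of ribosomal proteins with both Fosl2cKO libraries below both Fosl2F/F libraries was unlike that of the members in several classes, at 28.8% against 88.6% in luteal-like cells, 15% against 46.2% in cluster 13, 63.8% against 29.1% in theca-like cells and 31.2% against 2.53% in epithelial-like cells, but 75% against 74.7% in stromal-like cells. Leaving out Fosl2F/F replicate 1, which held the highest summed level in most classes, moved the median to -0.11 in GC-like, -0.03 in theca-like and 0.16 in epithelial-like cells. The difference of the condition effect between GC-like and stromal-like cells was tested directly with limma, and 0 of 79 members passed (0 at an unadjusted p under 0.05, median 0.14), where 0.00% of all genes did.

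In luteal-like cells 29 members (36.7%) had an unadjusted p under 0.05, as did 10.9% of all genes. Cox7a1 was at 15.4 and 9.54 CPM in Fosl2F/F against 3.18 and 2.22 CPM in Fosl2cKO (-2.31 ± 0.51, adjusted p = 0.279). Cox5a was at 705 and 692 CPM against 414 and 368 CPM (-0.96, adjusted p = 0.399). The class was made of 2 clusters in unlike shares. Cluster 9 held 34.1% and 72.3% of its cells in Fosl2F/F and 95.5% and 89.3% in Fosl2cKO, and cluster 18 held the rest. Of the UMIs of the class, cluster 9 held 3.08% and 79.8% in Fosl2F/F and 94.4% and 90.5% in Fosl2cKO, so that the value of the class in Fosl2F/F replicate 1 is almost wholly that of cluster 18 and the Fosl2cKO values are mostly those of cluster 9. Within cluster 9 the members summed to 29739 and 23312 CPM against 15104 and 14152 CPM, where the first value rests on 59 cells with a median of 1462 UMIs, against medians of 8419 to 15531.5 in the other libraries. Within cluster 18 the sums were 18814 and 16394 CPM against 15012 and 11811 CPM, but there the Fosl2cKO libraries held 15 and 31 cells, the first under the minimum of 20. The part of the cluster shares in the difference of the class was not tested.

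In NK or T-like cells 33 members (42.9%) and 10.8% of all genes had an unadjusted p under 0.05. The smallest p was that of Ndufs6, a zinc-binding subunit of complex I that is named here after its values were seen, at 106 and 118 CPM against 56.0 and 51.5 CPM (-1.10 ± 0.25, adjusted p = 0.140).

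Among the GC subclasses the medians ran from -0.11 in GC cluster 10 to -0.37 in GC cluster 9, with -0.33 in mitotic-antral-like, -0.31 in mitotic-like and cumulus-like, -0.30 in mural-like and -0.24 in atretic-like cells. Members at an unadjusted p under 0.05 numbered 32 in mitotic-antral-like cells (10% of all genes were) and 24 in GC cluster 4 (7.02% of all genes), 23 in mitotic-like cells (7.22%), 12 in GC cluster 9 (6.75%), 9 in cumulus-like (4.17%), 5 in atretic-like (5.45%) and 3 in mural-like cells (5.02%), 1 in GC cluster 11 (4.17%) and 0 in GC clusters 10 (3.42%) and 5 (5.32%). The share of all genes called was 0.00767% in atretic-like, 0.122% in cumulus-like, 0.0175% in mitotic-antral-like, 0.00697% in mitotic-like and 0.0251% in mural-like cells, and 0.105%, 0.0131%, 0.00847%, 0.00811% and 0.0133% in GC clusters 10, 11, 4, 5 and 9.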

How the data were processed

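Per the labels and the methods, the authors made 10x 3′ libraries of 4 ovary samples and aligned them with Cell Ranger. The deposited matrices hold raw UMI counts (whole numbers) for each gene in each barcode. The matrix headers name Cell Ranger 7.1.0, the submitters' processing notes name Seurat 4.1.0, and whether CellBender was applied to the deposited counts is not stated. Uniquely mapped reads were kept per the methods. No library was dropped, and 0 columns belonged to other samples.

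A cell was kept if it held more than 1000 UMIs and 500 or more genes, with mitochondrial genes below 10% and hemoglobin below 0.1% of its UMIs. The cells with the highest Scrublet scores (scanpy 1.11.5) were removed at 0.8% per 1000 cells. Between 15 and 81 barcodes were shared between pairs of libraries. Libraries were normalized with sctransform 0.4.2, integrated with Seurat 5.3.0 (3000 features without the members and mitochondrial genes, 30 dimensions) and clustered at a resolution of 0.8. The mitochondrial share of each cell was regressed out in the normalization. A cluster was named where a marker list scored at least 0.2, led the next by 0.1 and had at least 3 markers.

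UMIs were summed per class and library where each library had at least 20 cells. Tests between conditions and between classes were by edgeR 4.0.16 (quasi-likelihood) after TMM scaling and filterByExpr, with Benjamini-Hochberg adjustment over all genes. The difference of the condition effect between GC-like and stromal-like cells was tested with limma 3.58.1. A test on simulated data came first. DESeq2 1.42.0 was an alternative. CPM in the text are without TMM. The members, marker lists and gene lists were chosen with earlier results of these data known. Named were 20 listed subunits (catalytic or central to their complex), tissue isoforms, the members with the highest and lowest mean and the largest class ratios of each complex, those with profiles least like the others, and the 3 furthest in each direction in each class. Promoters came from RefSeq (GRCm38.p6). The values of 1 member are not reported here, though it is included in all counts and sums.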

Additional observations from a re-analysis of the deposited data

Results flagged for a closer look

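Oocyte-like cells entered no comparison, because 1 library held 19 of them and fewer than 20 was the limit. The members had UMIs there too, in cells outside the comparisons, at a summed level of 12648.5 CPM (SD 1829, n = 4). The GC markers summed to a mean of 1965 CPM in these cells, against 9174 to 15612 CPM in the libraries of GC-like cells, and the part of RNA from GCs in the level was not tested. The libraries stood at 13405, 12277, 10305 and 14607 CPM, on 32, 128, 24 and 19 cells, and the groups overlapped.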

How the results depend on the processing

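Between conditions 0 members passed in the 13 classes by edgeR. The count was 5 with DESeq2 (in luteal-like cells Ndufs5, Cox7a1, Uqcr10, Uqcrq and Ndufa6, where 3.44% of all genes were called), 5 without the gene filter (4 in luteal-like cells, with 4.89% of all genes, and Ndufs6 in NK or T-like cells, with 1.28%), 2 without integration (B lymphocyte-like cells, 4.91% of all genes) and 0 to 42 when each library was left out in turn. The 42 came without Fosl2F/F replicate 2, the library of shallow cells, with 36 in macrophage-like (10.7% of all genes), 5 in B lymphocyte-like (5.34%) and 1 in NK or T-like cells (2.74%), where the spread came from the Fosl2cKO pair alone. In GC subclasses the count of 0 became 9 without the gene filter (8 in mitotic-antral-like cells, 2.88% of all genes, and 1 in GC cluster 4, 1.95%). The deviations of libraries with the same replicate number were little correlated (-0.158 to 0.0704). With 2 libraries in each group this cannot settle whether the libraries are paired. With the replicate numbers as a block 1 member passed in the classes (Ndufs6 in NK or T-like cells, 0.886% of all genes) and 0 in the subclasses. With the numbers crossed, added after the data were seen, the counts were 4 and 8, in classes and subclasses where 2.03% to 4.65% of all genes were called. Of the 552 calls between classes, 414 held without TMM scaling and 29 took the opposite direction. Without it the median was -0.098 in dendritic-like and -0.070 in macrophage-like cells, where the values with it were 0.26 and 0.35. Cox6a2 in B lymphocyte-like cells was -5.38 without integration. With doublets kept, Atp5g1 and Cox5a in mural-like cells were 0.046 and 0.030. Of 1029 alternatives for named members in classes, 973 kept direction and side of the threshold, 55 lost the call and 1 changed sign. The cause of these changes was not tested. Oocyte-like cells were too few in 1 library to be compared.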
